A study of Mus musculus with 40 samples.

Results

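The p53 pathway set held 31 mouse genes, *Trp53* itself and 30 of its regulators and targets, out of the 55536 genes in each count table. The genes were chosen by name, with earlier results of these data known. They were sorted by their known roles into 6 feedback and control genes, 5 cell cycle arrest genes, 12 apoptosis genes, 5 DNA repair genes and 3 metabolism genes. The RNA was that of cultured mESCs, embryonic stem cells of the mouse kept in serum and LIF, of 3 genotypes: WT, *Ccnc* KO and *Cdk8* KO. *Ccnc* encodes Cyclin C and *Cdk8* its kinase partner, both parts of the CDK8 kinase module of Mediator. WT had 2 biological replicates, and each knockout line was 1 clone, named D1, G2 or H5 for *Ccnc* KO and B9, H4 or C8 for *Cdk8* KO. Each clone or replicate was treated for 4 h with DMSO or with 900 nM AZD6738, which blocks the ATR kinase (ATRi). The *Ccnc* KO samples were sequenced in one multiplex and the *Cdk8* KO samples in another, and the same WT samples were sequenced in both, so both knockouts were set against the same 2 WT replicates. WT replicate 2 under ATRi was left out of the fits, as the authors did. This left 6 knockout and 3 WT libraries in each multiplex, 1 of the 3 under ATRi.

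The transcription factor p53 is kept low by MDM2, an E3 ubiquitin ligase, and by its relative MDM4. When DNA is damaged, ATM, ATR and the kinases below them loosen this hold, and p53 then switches on genes that stop the cell cycle, start apoptosis, help repair and, through *Mdm2* and *Ppm1d*, turn p53 down again. mESCs are known for abundant p53 that is held largely inactive. The kinase module of Mediator is known as a coactivator of some p53 targets.

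Library totals ran from 30899823 to 67274049 counts, and all 31 genes passed the filter on low counts in all 8 comparisons. The scale of the levels below is CPM, counts scaled to library size after TMM normalization, unless RPKM, the same per kilobase of exon, is named. WT values of a gene are given in the order replicate 1 under DMSO, replicate 2 under DMSO and replicate 1 under ATRi, and the 6 knockout values as the lowest, the median and the highest. All 10 pluripotency markers were at 1 CPM or more in each of the 20 libraries. They summed to 4338 to 4861 CPM in *Ccnc* KO against 4865 to 5169 CPM in WT libraries of that multiplex. In the other multiplex they summed to 3580 to 4515 CPM in *Cdk8* KO against 4748 to 5068 CPM in WT libraries. Primitive endoderm markers, 12 genes, summed to 342 to 517 CPM in *Ccnc* KO libraries and 623 to 906 CPM for *Cdk8* KO, against 213 to 246 CPM in WT, and 10 neuroectoderm markers to 14.0 to 23.6 CPM in knockout against 27.7 to 31.9 CPM in WT libraries. These marker sums moved with genotype, and their part in the results below was not tested. In bulk RNA, fewer cells of a type and less RNA per cell cannot be told apart. *Ccnc* lay at 4.24 to 7.4 CPM in *Ccnc* KO against 43.6 to 45.1 CPM in the 3 WT libraries of the fit. *Cdk8* lay at 52.3 to 64.6 CPM in *Cdk8* KO against 71.2 to 78.6 CPM in the 3 WT libraries, and a count over a whole gene does not show a small edit.

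Several well-known p53 targets carry a p53 response element close to their start, which is made of 2 half-sites of 10 bases each. RefSeq promoter windows of GRCm38.p6, from 250 bases before to 50 bases after the start, were at hand for 23 of the 31 genes. The p53 consensus was searched on both strands with its half-sites at most 1 base apart, at most 2 mismatches in a half-site and the core of each kept. With at most 1 mismatch in all, it matched in *Cdkn1a*, *Ccng1* and *Rps27l*, and 35 of 27025 genes with a window (0.13%) held such a match. With at most 2 mismatches *Bax* was added, and 218 of 27025 genes (0.807%) held a match. Half-sites up to 13 bases apart added *Sesn1*, while 1272 of 27025 genes (4.71%) matched. A match describes these letters and does not show binding. The windows of *Cdkn1a*, an arrest gene, *Ccng1*, the most abundant arrest gene, and *Bax*, an apoptosis gene that differed in *Cdk8* KO cells, are shown because these genes are followed below. The *Rps27l* site, next to a RefSeq start that lies 327 bases from the GENCODE gene start, is given alone. *Cdkn1a* and *Rps27l* had 2 RefSeq windows each, and their distances are from the start of the 1 window used, which need not be the main start. Capitals mark the matched half-sites, and each run reads 5′ to 3′ on the strand of its gene.
Cdkn1a, chr17:29090729-29091028, plus strand, match 51 to 32 bases before the start: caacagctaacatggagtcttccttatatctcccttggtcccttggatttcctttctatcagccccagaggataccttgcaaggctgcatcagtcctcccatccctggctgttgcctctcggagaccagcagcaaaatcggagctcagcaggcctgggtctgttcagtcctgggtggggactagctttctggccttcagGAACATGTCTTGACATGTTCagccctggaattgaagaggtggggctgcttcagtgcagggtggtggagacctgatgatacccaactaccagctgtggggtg
Ccng1, chr11:40755237-40755536, minus strand, match 195 to 176 bases before the start: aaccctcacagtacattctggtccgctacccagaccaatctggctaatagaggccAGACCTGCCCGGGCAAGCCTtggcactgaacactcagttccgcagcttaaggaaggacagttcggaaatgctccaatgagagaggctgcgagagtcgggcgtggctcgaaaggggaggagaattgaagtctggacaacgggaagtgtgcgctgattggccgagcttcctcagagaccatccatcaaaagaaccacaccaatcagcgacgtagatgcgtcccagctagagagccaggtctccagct
Bax, chr7:45466849-45467148, minus strand, match 201 to 181 bases before the start, with 1 base between the half-sites and 2 mismatches: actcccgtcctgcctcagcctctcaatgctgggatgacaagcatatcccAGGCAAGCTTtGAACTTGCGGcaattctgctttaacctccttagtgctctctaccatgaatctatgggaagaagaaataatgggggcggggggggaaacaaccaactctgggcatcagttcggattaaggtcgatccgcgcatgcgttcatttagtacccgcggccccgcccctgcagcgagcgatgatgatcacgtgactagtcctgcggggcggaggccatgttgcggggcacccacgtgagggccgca
Rps27l, chr9:66946296-66946315, plus strand, match 117 to 98 bases before the start: GGGCTTGTTGAGACTTGTCC

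The genes covered a wide range of levels in WT cells under DMSO, where the 2 replicates gave 4 values, 1 in each multiplex. Per length, *Rps27l*, a ribosomal protein relative that p53 induces, was the highest at 259 RPKM, followed by *Trp53* at 189 RPKM and *Bax*, the pore-forming executioner of apoptosis, at 162 RPKM. *Ccng1*, which encodes cyclin G1, came next at 89.4 RPKM, ahead of *Phlda3*, a repressor of Akt, at 41.9 RPKM. The ranges of these first 5 genes over the 4 values did not overlap with their neighbours above, whereas *Phlda3* (35.5 to 47.2 RPKM) and *Mdm2* (32.4 to 37.6 RPKM) overlapped. *Cdkn1a*, the p21 inhibitor of cyclin-dependent kinases, had rank 17 at 8.84 RPKM (7.74 to 10 RPKM), and its range overlapped with those of *Xpc* and *Plk2* below it. The lowest were *Pmaip1*, which encodes the BH3-only protein NOXA, at 3.19 RPKM, *Rrm2b*, a ribonucleotide reductase subunit, at 0.579 RPKM, and the death receptor gene *Fas* at 0.159 RPKM. The median level per length was 29.0 RPKM for feedback and control, 13.8 for metabolism, 13.1 for apoptosis, 8.84 for arrest and 4.68 for repair genes. *Rps27l* has near copies in the genome and its counts are uncertain, and 12.2% of the exon length of *Bax* overlaps the gene model *Gm45808*.

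**Figure D1:**
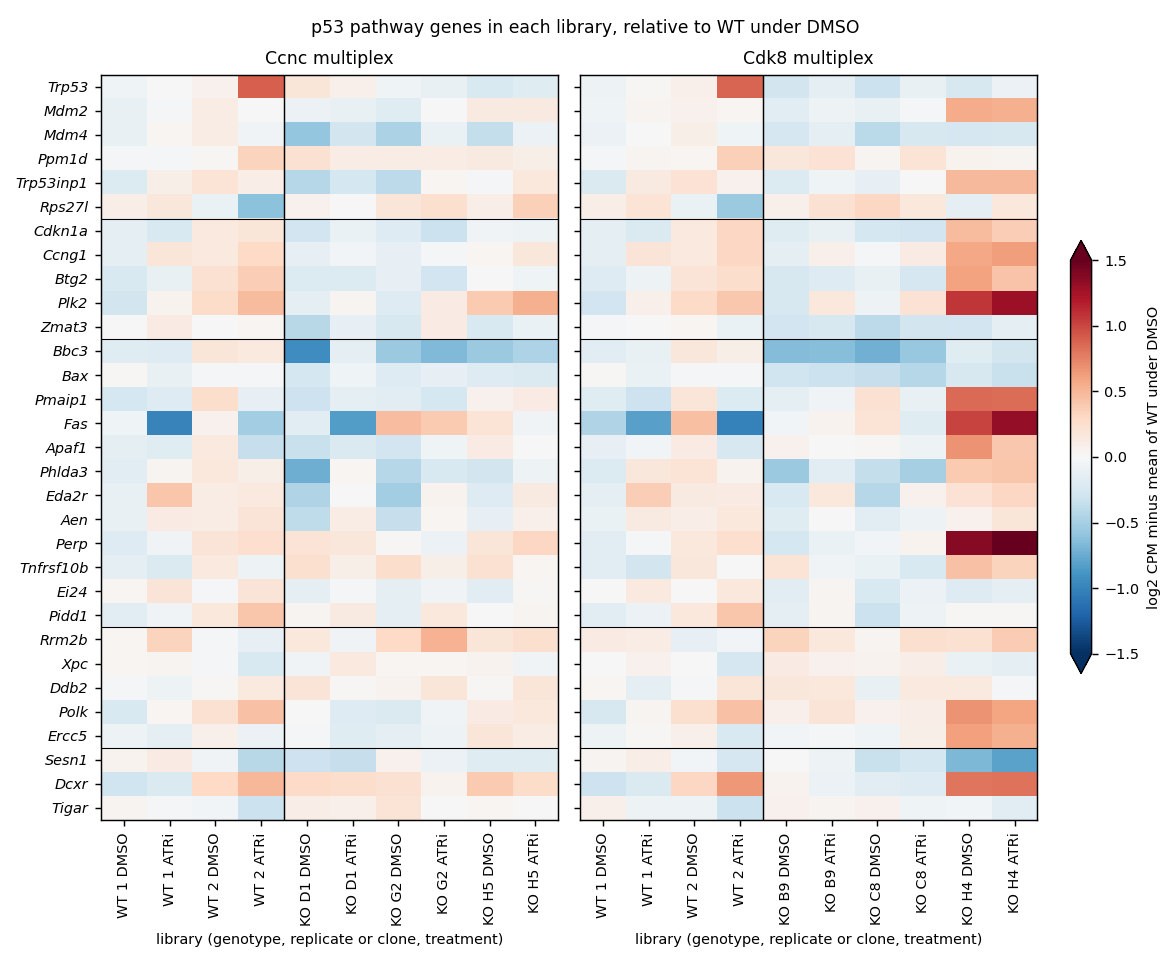
Each cell shows the log2 CPM of a p53 pathway gene (rows, grouped by role) in 1 library (columns), minus the mean of WT under DMSO in the same multiplex, on a symmetric colour scale. The darkest reds stand in the 2 H4 columns at *Perp*, *Plk2* and *Fas*, *Trp53* is red in WT replicate 2 under ATRi, and *Bbc3* is blue in most knockout columns.

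The first question was whether loss of Cyclin C or CDK8 changed these genes independently of treatment, tested with edgeR in each multiplex with treatment as a term. In *Ccnc* KO cells 7 of the 31 genes passed an adjusted p of 0.05, 1 higher and 6 lower than in WT, beside 12.3% of all 18577 genes tested. The median log2 fold change of the 31 genes was -0.04, against 0.003 over all genes. In *Cdk8* KO cells 5 of the 31 genes passed, all of them lower, beside 4.31% of 18721 genes, with a median of 0.10 against 0.01. Both medians changed sign when 1 clone or replicate was left out: the *Cdk8* KO median was -0.10, with 11 genes positive in place of 19, without clone H4 and -0.006 without WT replicate 1, and the *Ccnc* KO median was 0.01 without D1, 0.002 without G2 and 0.03 without WT replicate 2. None of these changes reached 2-fold. By role, the calls in *Ccnc* KO cells were 1 of 6 feedback and control, 1 of 5 arrest and 5 of 12 apoptosis genes. In *Cdk8* KO cells they were 2 of 6, 1 of 5 and 2 of 12. No repair or metabolism gene was called in either of these fits, with the medians of the 5 repair genes at 0.05 for the first and 0.18 for the second knockout on the log2 scale.

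**Figure D2:**
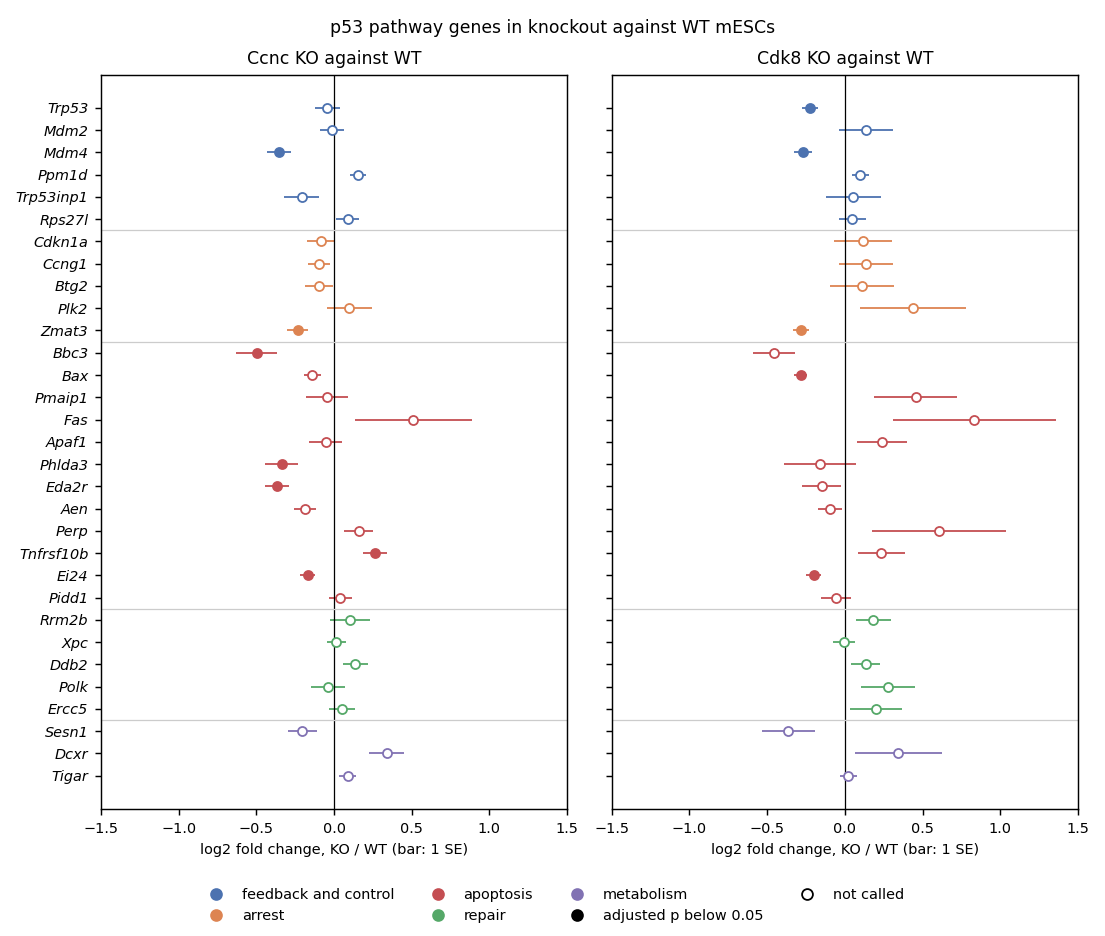
Log2 fold change of each p53 pathway gene in *Ccnc* KO (left) and *Cdk8* KO (right) against WT cells with treatment as a term, with bars of 1 SE, coloured by role and filled where the adjusted p is below 0.05. Filled points lie left of 0 except *Tnfrsf10b* in *Ccnc* KO cells at 0.26, and *Fas*, *Perp* and *Plk2* have wide bars in *Cdk8* KO cells.

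*Trp53* (chr11:69580359-69591873, plus strand, GRCm38) measured 737 and 810 CPM in WT replicates 1 and 2 under DMSO and 778 CPM in replicate 1 under ATRi in the *Ccnc* multiplex, and the 6 *Ccnc* KO libraries ran from 660.5 over a median of 726 to 876.5 CPM. The groups overlapped, and the log2 fold change was -0.04 ± 0.08 (SE; edgeR adjusted p = 0.769). In the *Cdk8* multiplex the same WT libraries gave 717, 799 and 764 CPM, and the 6 *Cdk8* KO libraries ran from 605 over 665 to 711 CPM. All 6 lay below all 3 WT libraries, with a log2 fold change of -0.22 ± 0.05 (edgeR adjusted p = 0.0387). The call was lost without clone B9 (adjusted p = 0.0659), without C8 (0.134) and without either WT replicate (0.343 and 0.111), with the clone as a random effect (0.0781), and with WT replicate 2 under ATRi included (0.0717).

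*Mdm2* (chr10:117688875-117710758, minus strand), the E3 ligase gene that p53 itself induces, lay at 165, 191 and 176 CPM in the 3 WT libraries and from 156 over 171 to 195.5 CPM in *Ccnc* KO libraries, which overlapped (log2 fold change -0.02, edgeR adjusted p = 0.925). Beside *Cdk8* KO, WT gave 173, 189 and 185 CPM, and the *Cdk8* KO libraries ran from 162 over 176 to 266 CPM (log2 fold change 0.14, edgeR adjusted p = 0.704). The highest values, 266 and 262 CPM, came from clone H4.

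*Mdm4* (chr1:132959484-133030561, minus strand), whose product binds p53 and blocks its activity, was lower in both knockouts. It measured 102, 119 and 112 CPM in WT, and in *Ccnc* KO libraries from 74.0 over 88.2 to 104 CPM, so that the groups overlapped slightly. The log2 fold change was -0.36 ± 0.08 (edgeR adjusted p = 0.00692), and this call was kept under all 11 alternatives. The WT values of the *Cdk8* multiplex were 106, 120 and 113 CPM, and *Cdk8* KO ran from 85.4 over 95.3 to 102 CPM, with no overlap and a log2 fold change of -0.27 ± 0.06 (edgeR adjusted p = 0.0292). There the call was lost without C8 (0.110), without WT replicate 1 (0.343) or 2 (0.105), and with the clone as a random effect (0.0795).

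The remaining feedback and control genes were not called in either knockout. *Ppm1d*, the WIP1 phosphatase that resets the damage response, had log2 fold changes of 0.15 for *Ccnc* KO and 0.10 for *Cdk8* KO, *Trp53inp1*, a p53-induced cofactor, -0.21 and 0.06, and *Rps27l* 0.09 and 0.05.

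Among the arrest genes, *Cdkn1a* (chr17:29090976-29100727, plus strand) was not called in either knockout. WT libraries held 28.9, 35.5 and 27.4 CPM and *Ccnc* KO libraries from 25.6 over 29.0 to 30.8 CPM (log2 fold change -0.08, edgeR adjusted p = 0.601). Of the *Cdk8* multiplex, WT held 27.5, 33.7 and 26.1 CPM and *Cdk8* KO libraries from 25.0 over 27.6 to 42.3 CPM (log2 fold change 0.12, edgeR adjusted p = 0.765). The groups overlapped in both, and the highest values, 42.3 and 39.4 CPM, were those of clone H4.

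*Zmat3* (chr3:32334792-32366014, minus strand), a zinc finger RNA-binding protein gene induced by p53, was the arrest gene called in each knockout. WT libraries held 80.8, 81.8 and 88.9 CPM, and *Ccnc* KO libraries from 61.0 over 72.1 to 88.7 CPM, overlapping through G2 under ATRi (log2 fold change -0.24 ± 0.07, edgeR adjusted p = 0.0368). The call was lost without clone D1 (0.0652), H5 (0.0707), WT replicate 1 (0.237) or WT replicate 2 (0.108), and with WT replicate 2 under ATRi included (0.0909). WT libraries of the *Cdk8* multiplex held 82.6, 86.1 and 84.4 CPM and *Cdk8* KO from 64.5 over 69.3 to 76.8 CPM, with no overlap (log2 fold change -0.28 ± 0.05, edgeR adjusted p = 0.0168). It was lost there without C8 (0.0761), WT replicate 1 (0.351) or WT replicate 2 (0.0743), and with the clone as a random effect (0.0587). *Ccng1*, the antiproliferative gene *Btg2* and the kinase gene *Plk2* had log2 fold changes between -0.10 and 0.44 over both knockouts, and none was called.

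The apoptosis genes, the largest group of the set, supplied 5 of the 7 calls in *Ccnc* KO cells and 2 of the 5 in *Cdk8* KO cells. *Bbc3* (chr7:16308393-16318205, plus strand), which encodes the BH3-only protein PUMA, measured 29.6, 38.2 and 29.3 CPM in WT and from 17.6 over 22.8 to 30.7 CPM in *Ccnc* KO libraries. Of the 6, only D1 under ATRi reached the WT range, and the log2 fold change was -0.50 ± 0.13 (edgeR adjusted p = 0.0229). Leaving out G2 (0.0710) or WT replicate 2 (0.128) ended the call. The WT libraries sequenced with *Cdk8* KO gave 29.0, 36.8 and 30.4 CPM and *Cdk8* KO from 19.8 over 21.5 to 28.8 CPM, without overlap, at a log2 fold change of -0.46 ± 0.14 that missed the threshold (edgeR adjusted p = 0.0876). Without clone H4 it was -0.61 and passed (0.00416), as it did by DESeq2 (0.0192), with a filter of 1 count (0.0285) and with WT replicate 2 under ATRi included (0.0369).

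*Bax* measured 258, 253 and 237 CPM in WT and from 212 over 224 to 244 CPM in *Ccnc* KO libraries (log2 fold change -0.14, edgeR adjusted p = 0.129). In the second multiplex WT gave 256, 252 and 237 CPM and *Cdk8* KO from 188 over 202 to 216 CPM. Every *Cdk8* KO library lay below every WT library, with a log2 fold change of -0.28 ± 0.04 (edgeR adjusted p = 0.00734), the smallest adjusted p of the 31 genes in that comparison. The call was lost only without WT replicate 1 (0.375) among the left-out clones and replicates, and when only DMSO libraries were used (0.167).

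*Eda2r* (chrX:97333840-97377216, minus strand), the gene of a receptor for ectodysplasin in the TNF receptor family, held 37.9, 44.3 and 54.5 CPM in WT and from 28.4 over 38.4 to 44.9 CPM in *Ccnc* KO libraries. The groups overlapped, with the highest value of each under ATRi, and with treatment as a term the log2 fold change was -0.37 ± 0.08 (edgeR adjusted p = 0.00636). The call was lost without WT replicate 1, which left 1 WT library, and with DMSO libraries only. In the *Cdk8* multiplex WT held 38.1, 45.6 and 53.8 CPM and *Cdk8* KO libraries from 31 over 44.9 to 51.7 CPM, which overlapped. The log2 fold change there was -0.15 and not called, and without H4 -0.30 (0.0458).

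*Phlda3* (chr1:135766119-135769136, plus strand) held 58.8, 73.6 and 67.8 CPM in WT and from 39.7 over 55.2 to 67.0 CPM in *Ccnc* KO libraries (log2 fold change -0.34 ± 0.10, edgeR adjusted p = 0.0445). This call did not hold without G2 (0.134), WT replicate 1 (0.0552) or WT replicate 2 (0.214), nor with the clone as a random effect (0.0626) or WT replicate 2 under ATRi included (0.0685). In the *Cdk8* multiplex WT held 55.3, 73.6 and 71.8 CPM and *Cdk8* KO libraries from 43.2 over 53.3 to 85.2 CPM, and the log2 fold change of -0.16 became -0.48 without H4 (0.0246).

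*Ei24* (chr9:36779159-36797393, minus strand), a p53-induced gene of the endoplasmic reticulum, held 143, 138 and 161 CPM in WT and from 126 over 132 to 142 CPM in *Ccnc* KO libraries (log2 fold change -0.17 ± 0.05, edgeR adjusted p = 0.0360). The 6 *Cdk8* KO libraries ran from 122 over 128 to 147 CPM against 142, 143 and 158 CPM in WT (-0.20 ± 0.05, edgeR adjusted p = 0.0434). The first call was lost without G2 (0.119), H5 (0.0913) or WT replicate 1 (0.526), with the clone as a random effect (0.0512) and with a filter of 1 count (0.0618). The second was lost without C8 (0.158) or either WT replicate (0.517 and 0.117), and with the random effect (0.154).

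*Tnfrsf10b* (chr14:69767472-69784411, plus strand), which encodes the TRAIL receptor of the mouse, was the 1 gene called higher in *Ccnc* KO cells. WT libraries held 16.3, 20 and 15.5 CPM and *Ccnc* KO libraries from 18.5 over 20.3 to 21.7 CPM (log2 fold change 0.26 ± 0.08, edgeR adjusted p = 0.0376). Replicate 2 of WT lay inside the knockout range. It did not pass without G2 (0.124), H5 (0.0712) or WT replicate 1 (0.714), with a filter of 1 count (0.0510) or with WT replicate 2 under ATRi included (0.0698). In the *Cdk8* multiplex WT held 15.8, 19.9 and 14.7 CPM and *Cdk8* KO libraries from 15.2 over 18.8 to 24.0 CPM, which overlapped (log2 fold change 0.23, not called).

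The other apoptosis genes were not called in either knockout, and in *Cdk8* KO cells those with positive values had wide errors. *Perp*, a membrane protein gene, was at 0.61 ± 0.43, *Pmaip1* at 0.46 ± 0.27 and *Apaf1*, the scaffold of the apoptosome, at 0.24 on the log2 scale there. *Fas* lay between 0.125 and 0.816 CPM in the 20 libraries, so that its log2 fold changes of 0.51 and 0.83 rested on few counts. *Aen*, an apoptosis-enhancing nuclease gene, was at -0.19 and -0.09, and *Pidd1*, the core of the PIDDosome, at 0.04 and -0.06 in *Ccnc* KO and *Cdk8* KO cells.

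The 5 repair genes and 3 metabolism genes ranged in *Ccnc* KO cells from -0.20 for *Sesn1*, a sestrin gene of the stress response, to 0.34 for *Dcxr*, a carbonyl and xylulose reductase gene (edgeR adjusted p = 0.171 and 0.0648). *Dcxr* was called higher by DESeq2 (adjusted p = 0.0335), and by edgeR with a filter of 1 count (0.00763) and without WT replicate 2 (0.51, 0.00659). In *Cdk8* KO cells *Sesn1* was at -0.36 and *Dcxr* at 0.34, and *Sesn1* was called without clone B9 (-0.55, 0.0490). The nucleotide excision repair genes *Xpc* and *Ddb2* were at 0.01 and 0.14 for *Ccnc* KO and at -0.01 and 0.13 for *Cdk8* KO. *Polk*, a translesion polymerase gene, was at -0.04 and 0.28, the endonuclease gene *Ercc5* at 0.05 and 0.20, *Rrm2b* at 0.10 and 0.18, and *Tigar*, a regulator of glycolysis, at 0.09 and 0.02.

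These counts depended on which libraries were used, and the share of all genes called moved as well. With DMSO libraries alone, 2 genes (*Mdm4* and *Bbc3*) were called in *Ccnc* KO cells, beside 3.72% of all genes. The count by edgeR for *Cdk8* KO was then 0, beside 0.0296%, where 6 had an unadjusted p under 0.05. Of the main calls, only *Mdm4* and *Bbc3* in *Ccnc* KO cells thus held with DMSO libraries alone. The losses listed by gene above do not all name this setting. With the clone as a random effect, 5 and 1 were called, beside 10.1% and 1.27% of all genes. Without WT replicate 1 the counts were 2 and 0, beside 1.6% and 0.00538%, and without WT replicate 2 they were 5 and 1, beside 8.48% and 1.41%. The *Ccnc* KO count was 3 without G2, beside 7.54%. The *Cdk8* KO count was 1 without C8 and 8 without H4, beside 1.33% and 7.13%. The main fits counted the 2 libraries of 1 clone as separate, though they are not independent. Their p-values and SEs therefore measure the spread between libraries and not that between clones.

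The calls without clone H4 pointed to a spread within the *Cdk8* KO group, which is described here without a test, since it was seen in these values. Both libraries of H4 lay above every other library of the multiplex, with WT replicate 2 under ATRi set aside, for 15 of the 31 genes (48.4%), beside 14.6% of all 18721 genes. Both lay below for 2 genes (6.45%), *Xpc* and *Sesn1*, beside 10% of all genes. The like counts above were 1 gene for B9 (3.23%, beside 4.82% of all genes), 0 for C8 (beside 3.56%), 1 for D1 (beside 4.29%), 1 for G2 (beside 2.2%) and 3 for H5 (9.68%, beside 2.64%). WT replicate 1 had 1 in each multiplex (beside 5.81% in the *Ccnc* and 6.04% in the *Cdk8* multiplex). WT replicate 2, by its DMSO library alone, had 9 in the *Ccnc* (29%, beside 15.4%) and 5 in the *Cdk8* multiplex (16.1%, beside 13.4%). A single library passes more easily than 2. Of those 9, *Btg2*, *Phlda3*, *Trp53inp1*, *Apaf1*, *Polk*, *Cdkn1a* and *Pmaip1* were also among the 15 of H4. The 15 genes were *Ccng1*, *Cdkn1a*, *Btg2* and *Plk2* of the arrest group, *Perp*, *Pmaip1*, *Phlda3*, *Apaf1*, *Tnfrsf10b* and *Fas* of the apoptosis group, *Mdm2* and *Trp53inp1* of the feedback group, *Ercc5* and *Polk* of the repair group, and *Dcxr*.

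Under DMSO, the median log2 difference of a clone from the WT mean was highest in H4 for the arrest genes, at 0.58, where 4 of 5 were positive. For the apoptosis genes it was 0.30 with 9 of 12 positive, for the repair genes 0.23 with 4 of 5 positive, and for the feedback genes -0.04. Over all 31 genes it was 0.23 with 21 positive, against 0.01 over all genes tested. In B9 the same medians were -0.24 for arrest, -0.17 for apoptosis and -0.14 over the 31 genes, with 11 positive, and in C8 they were -0.11, -0.20 and -0.11, with 9 positive. In the *Ccnc* KO clones the medians over the 31 genes were -0.13 in D1, -0.14 in G2 and 0.03 in H5.

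The levels of genes chosen after their values were seen show the size of this spread. *Perp* held 146 CPM (DMSO) and 162 CPM (ATRi) in H4, and between 47.4 and 67.6 CPM in the other 8 libraries of the multiplex. *Plk2* held 82.2 and 94.7 CPM in H4, against 33.0 and 43.5 CPM in B9 and 37.0 and 45.5 CPM in C8. *Ccng1*, whose promoter window is shown above, held 475 and 490 CPM in H4, against 288 and 334 CPM in B9 and 311 and 345 CPM in C8. *Trp53* itself was at 641 and 711 CPM in H4, against 626 and 689 CPM in B9 and 605 and 704 CPM in C8, so the 3 clones did not separate in *Trp53*. *Zmat3*, *Bbc3* and *Bax* were not among the 15 genes. Fibroblast markers summed to 19.7 to 23.2 CPM in H4, with 3 of 7 at 1 CPM or more and *Lum* at 0 under DMSO, and to 3.89 to 8.76 CPM in the other 8 libraries, with 2 of 7 at 1 CPM or more and *Lum*, *Postn* or *Col3a1* at 0 in each, and pluripotency markers to 3580 to 3705 CPM in H4 and 4097 to 5068 CPM in the others. Their part in the values of H4 was not tested.

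**Figure D3:**
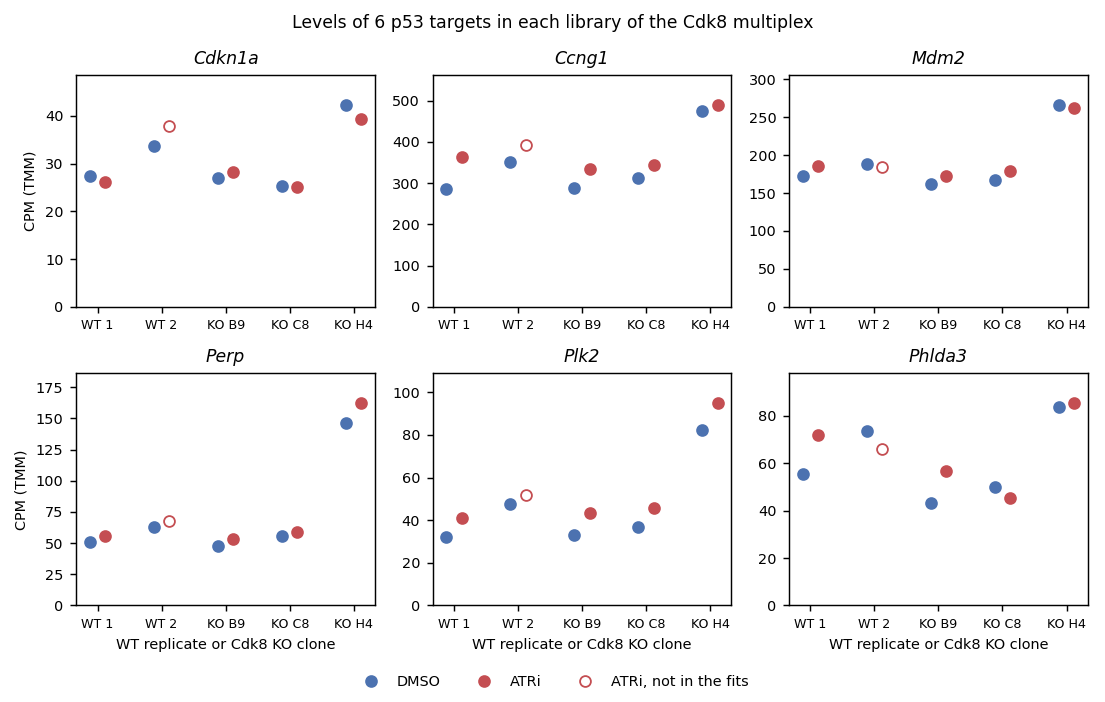
Levels (CPM, linear axis from 0) of *Cdkn1a*, *Ccng1*, *Mdm2*, *Perp*, *Plk2* and *Phlda3* in each library of the *Cdk8* multiplex, by WT replicate or clone, blue for DMSO and red for ATRi, with an open circle for the library left out of the fits. The 2 points of H4 are the highest of each panel, for *Perp* at 146 and 162 CPM, while the points of B9 and C8 lie lower, for *Phlda3* at 43.2 and 56.6 CPM in B9 and 49.95 and 45.2 CPM in C8, against 55.3 to 73.6 CPM in WT.

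The second question was whether 4 h of ATRi changed these genes. With genotype as a term, 1 of the 31 genes passed in the *Ccnc* multiplex, *Eda2r*, beside 1.11% of 18577 genes tested. For the *Cdk8* multiplex edgeR called 0 of 31, beside 0.0855% of 18721 genes, with 3 at an unadjusted p under 0.05 and 0 by DESeq2. The median log2 change of the 31 genes was 0.03 in the *Ccnc* and 0.04 in the *Cdk8* multiplex, against -0.01 over all genes in each. Within the *Ccnc* KO clones edgeR called 0 of 31, beside 0.0894% of all genes, with 5 at an unadjusted p under 0.05 and 3 by DESeq2 (*Mdm4*, *Eda2r* and *Aen*), beside 0.688%. Within the *Cdk8* KO clones it called 0, beside 0% of all genes, with 1 at an unadjusted p under 0.05 and 0 by DESeq2.

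*Eda2r* rose in each *Ccnc* KO clone, from 29.9 to 41.0 CPM in D1, from 28.4 to 42.6 CPM in G2 and from 35.8 to 44.9 CPM in H5. In WT replicate 1 it went from 37.9 to 54.5 CPM, and in WT replicate 2, outside the fit, from 44.3 to 45.4 CPM. The log2 change was 0.43 ± 0.07 (SE; edgeR adjusted p = 0.0141). The call was lost without clone G2 (0.108) or WT replicate 1 (0.112), and with WT replicate 2 under ATRi included (0.0879). On the *Cdk8* side it went from 38.1 to 53.8 CPM in WT replicate 1, from 35.6 to 46.4 CPM in B9, from 31 to 43.5 CPM in C8 and from 48.4 to 51.7 CPM in clone H4, and the log2 change of 0.32 ± 0.12 did not pass (edgeR adjusted p = 0.364).

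Since the DMSO and ATRi samples of a clone are the same cell line, a fit with the clone or replicate as a block was run beside these. It called 4 of the 31 genes in the *Ccnc* multiplex, all higher under ATRi, *Eda2r* (log2 change 0.47, edgeR adjusted p = 0.00480), *Aen* (0.32, 0.0192), *Mdm4* (0.27, 0.0295) and *Trp53inp1* (0.26, 0.0371). In the *Cdk8* multiplex the block gave 8 genes, again all higher. These were *Plk2* (0.31, edgeR adjusted p = 0.000519), *Eda2r* (0.36, 0.00153), *Trp53* (0.15, 0.00490), *Ccng1* (0.19, 0.00767), *Aen* (0.15, 0.0111), *Ei24* (0.13, 0.0191), *Perp* (0.13, 0.0247) and *Trp53inp1* (0.15, 0.0445). Over all genes the blocked fit called 2.43% and 11.3% in the *Ccnc* and *Cdk8* multiplexes. Within the *Ccnc* KO clones the block gave 1 call, *Eda2r* (0.45), beside 0.65% of all genes, and within the *Cdk8* KO clones 3, *Trp53* (0.17), *Plk2* (0.29) and *Eda2r* (0.31), beside 6.95%. When WT replicate 2 under ATRi was kept in the blocked fit, 0 genes were called in the *Ccnc* multiplex, with 11 at an unadjusted p under 0.05, and 1 in the *Cdk8* multiplex, *Plk2* (0.28), beside 0.259% and 2.72% of all genes. The counts thus changed with that library, and no other clone or replicate was left out of the blocked fits.

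The pairs were also read 1 by 1, as ATRi minus DMSO on the log2 scale in each of the 3 clones and WT replicate 1. In the *Ccnc* multiplex 10 of the 31 genes (32.3%) were higher under ATRi in all 4 pairs, beside 12.2% of all genes, and 4 were lower in all, beside 14.7%. In the *Cdk8* multiplex 10 (32.3%) were higher in all 4 pairs, beside 15.2% of all genes, and 3 were lower, beside 17.6%. WT replicate 1 enters both multiplexes, so that the counts share it. In the first multiplex the 10 genes were *Mdm4*, *Trp53inp1*, *Ccng1*, *Plk2*, *Zmat3*, *Phlda3*, *Eda2r*, *Aen*, *Pidd1* and *Ei24*. In the second they were *Mdm4*, *Trp53*, *Ccng1*, *Plk2*, *Zmat3*, *Eda2r*, *Aen*, *Perp*, *Pidd1* and *Ei24*. The pair of WT replicate 2 was not counted. There, *Mdm4* (-0.15), *Trp53inp1* (-0.10) and *Phlda3* (-0.08) of the first 10 were lower under ATRi, and the others higher. Of the second 10, *Mdm4* (120 to 108.5 CPM), *Zmat3* (86.1 to 78.9 CPM) and *Eda2r* (45.6 to 45.4 CPM) were lower in it, and the others higher. *Tnfrsf10b* and *Tigar* were lower in all pairs of each. *Aen* moved by 0.49 in D1, 0.38 in G2, 0.20 in H5 and 0.23 in WT replicate 1, and by 0.18, 0.09 and 0.11 in B9, C8 and H4. *Plk2* moved by 0.17, 0.31 and 0.15 in D1, G2 and H5, by 0.33 in WT replicate 1, and by 0.40, 0.30 and 0.21 in B9, C8 and H4.

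**Figure D4:**
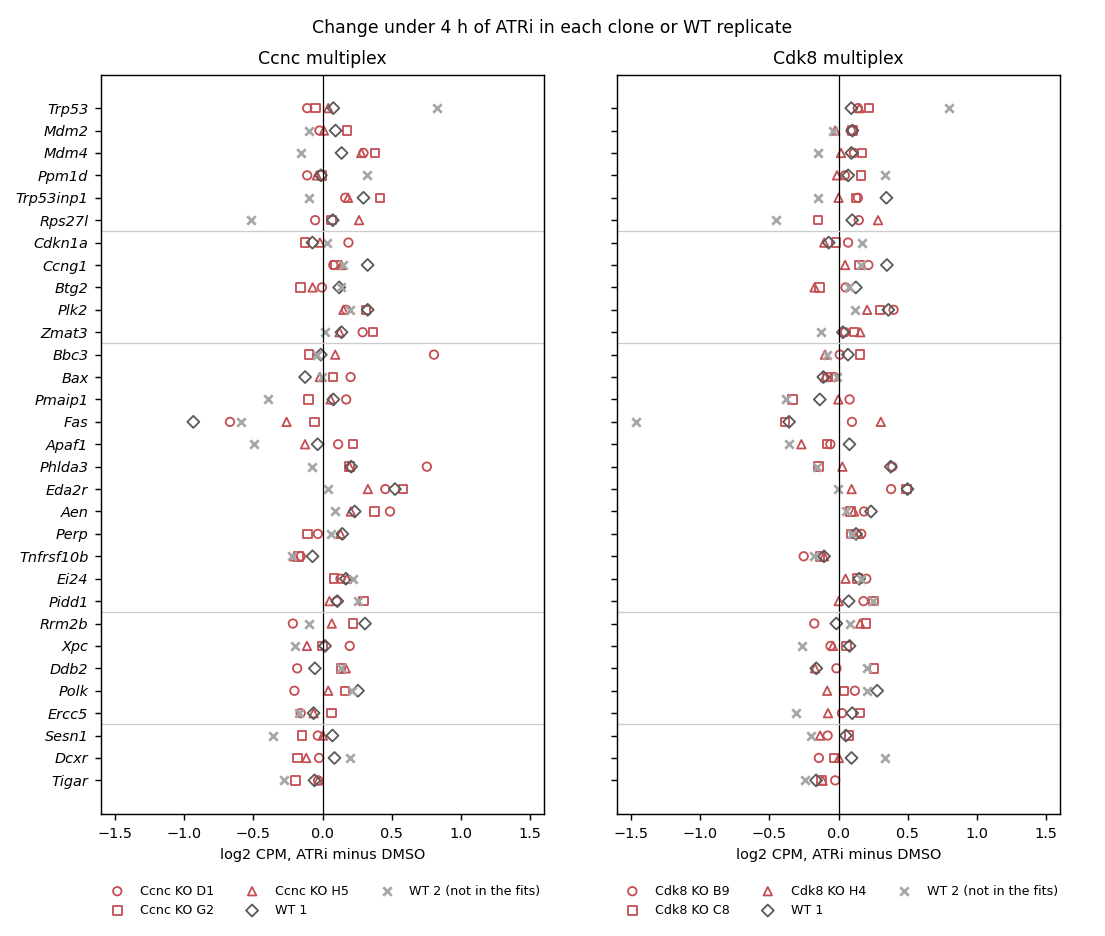
Change of each p53 pathway gene under ATRi (log2 CPM, ATRi minus DMSO) in each *Ccnc* KO clone (left) or *Cdk8* KO clone (right) and in WT replicates 1 and 2, grouped by role. *Eda2r*, *Aen* and *Plk2* lie right of 0 in all 3 clones and WT replicate 1 on both sides, whereas *Cdkn1a* and *Mdm2* lie on both sides of 0, and WT replicate 2 stands far right at *Trp53* (0.83 and 0.80).

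The genes most used as readouts of p53, *Cdkn1a* and *Mdm2*, did not move in 1 direction over the pairs. *Cdkn1a* differed by 0.19, -0.13 and -0.02 in D1, G2 and H5, by 0.07, -0.02 and -0.10 in B9, C8 and H4, and by -0.07 in WT replicate 1 in each multiplex. *Mdm2* differed by -0.02, 0.18 and 0.01 in D1, G2 and H5, by 0.09, 0.10 and -0.03 in B9, C8 and H4, and by 0.09 and 0.10 in WT replicate 1. Their model estimates were -0.06 and 0.03 in the *Ccnc* multiplex and -0.09 and 0.04 in the *Cdk8* multiplex, and neither gene was called under any alternative of the ATRi comparisons. By role, the median change under ATRi was highest in the arrest genes of the *Ccnc* multiplex, at 0.12, and lowest in the 3 metabolism genes, at -0.07 and -0.09 in the *Ccnc* and *Cdk8* multiplexes. The repair genes had medians of 0.01 in both. The median of the 31 genes in a single pair lay at 0.08, 0.07 and 0.05 in D1, G2 and H5, at 0.08, 0.09 and -0.0008 in B9, C8 and H4, and at 0.09 in WT replicate 1 of each multiplex. In WT replicate 2, whose ATRi library is outside the fits, it lay at -0.004 in the *Ccnc* and -0.02 in the *Cdk8* multiplex.

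The third question was whether the response to ATRi differed between knockout and WT cells. WT had 1 library under ATRi in these fits, from the same sample in both multiplexes. The SEs were wide, for *Bbc3* 0.26 against 0.13 for *Ccnc* KO against WT. A count of 0 therefore does not show that the responses were alike. The interaction of genotype and treatment was called by edgeR for 0 of the 31 genes in either multiplex, beside 0% and 0% of all genes, with 0 of the 31 at an unadjusted p under 0.05 and 0 by DESeq2. *Bbc3* at 0.46 ± 0.26 and *Phlda3* at 0.32 ± 0.20 in the *Ccnc* multiplex, chosen after their values were seen, were within 2 SE of 0. With WT replicate 2 under ATRi included, 0 were called as well, with 1 and 0 of the 31 at an unadjusted p under 0.05 in the *Ccnc* and *Cdk8* multiplexes.

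WT replicate 2 under ATRi, outside the fits, held *Trp53* at 1437 CPM (*Ccnc* multiplex) and 1391 CPM (*Cdk8* multiplex), against 605 to 876.5 CPM in the other 18 libraries, and *Rps27l* at 138 and 143 CPM, against 193 to 271 CPM. It lay above every other library for 9 of the 31 genes in the *Ccnc* multiplex (29%), beside 21.5% of all genes, and for 5 in the *Cdk8* multiplex (16.1%), beside 20.8%. It lay below every other library for 6 genes in each (19.4%), beside 21% and 24.2% of all genes, so that these counts were near the shares over all genes. *Mdm2*, at 178 and 184 CPM, was inside the range of the other WT libraries. With this library in the fits, the *Ccnc* KO calls went from 7 to 4, beside 10.6% of all genes, the *Cdk8* KO calls stayed at 5 with *Bbc3* in place of *Trp53*, beside 6.33%, and the ATRi calls of the *Ccnc* multiplex from 1 to 0, beside 0.231%. The 4 WT samples, measured in both multiplexes, differed between them by a median of 0.04 to 0.05 in absolute log2 value over the 31 genes, and by more than 0.25 only for *Fas* and *Rrm2b*.

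Other genes of the pathway were followed in 3 further lists. Of 23 further targets of p53, *Ccnc* KO cells had 5 called, 2 higher and 3 lower, with a median log2 fold change of -0.03, and 1 in *Cdk8* KO cells, higher, with a median of -0.06. Under ATRi 1 of the 23 was called in each multiplex, lower both times, with medians of -0.06 and -0.01. Of 24 regulators of p53, 23 were tested, and 5 were called in *Ccnc* KO cells, 1 higher and 4 lower (median -0.09), and 2 in *Cdk8* KO cells, both lower (median -0.10). Under ATRi 1 of them was called in the *Ccnc* multiplex, higher, and 0 in the *Cdk8* multiplex, with medians of 0.06 and 0.02. Of 11 genes of the mitochondrial apoptosis machinery, 1 was called in *Ccnc* KO cells, lower (median -0.004), and 0 in *Cdk8* KO cells (median 0.10), and 0 in either ATRi comparison (medians 0.07 and -0.02). Over all genes 12.3% were called in *Ccnc* KO cells, 4.31% in *Cdk8* KO cells, and 1.11% and 0.0855% under ATRi, and the medians lay between -0.01 and 0.01.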

How the data were processed

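Poly(A) RNA of 20 libraries, 10 in each of 2 multiplexes and each read on 2 lanes, was analysed from the deposited counts. The authors trimmed the single-end reads with Trimmomatic 0.38, aligned them to GRCm38 (p6) with HISAT2 2.1.0, and counted them per gene and strand with featureCounts 2.0.1, set to ignore reads marked as duplicates, which can lower the counts of abundant genes. The deposited counts are per lane and not normalized. The deposited log2 values made by the authors with rlog of DESeq2, a transformation that pulls low genes together, were not used.

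The lanes of a library were summed, and totals lay between 30899823 and 67274049 counts. Each multiplex was tested over all genes with the quasi-likelihood test of edgeR 4.0.16 (R 4.3.3) after TMM normalization and the default filterByExpr filter, with Benjamini-Hochberg adjustment over all genes tested and a call at an adjusted p under 0.05. The genotype effect was fitted beside treatment, the ATRi effect beside genotype, then their interaction, and the ATRi effect within the knockout clones. SEs are the absolute log2 fold change over the square root of F. RPKM used exon lengths of GENCODE M21, and log2 CPM a prior count of 2. The fits were also run on simulated counts of the *Ccnc* multiplex with 200 changed genes. Libraries were drawn there as independent, with no clone effect and changes of 2-fold or more. This does not show how the tests handle paired libraries or smaller changes. Alternatives were DESeq2 1.42.0, RLE size factors, a filter of 1 count in any library, DMSO libraries only, the clone as a block (as a random effect with limma 3.58.1 for genotype), WT replicate 2 under ATRi included, and leaving out each clone or replicate. The fits with that library and the block together were added after the data had been seen.

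The 31 genes and the other lists, namely further p53 targets, p53 regulators, mitochondrial apoptosis machinery and markers of pluripotency, primitive endoderm, neuroectoderm and fibroblasts, were chosen with earlier results of these data known. Levels in both multiplexes are given for *Trp53*, *Mdm2*, *Cdkn1a* and each gene of the set called in any of the 8 comparisons, as the 3 WT values and the lowest, median and highest of the knockout libraries. DMSO and ATRi libraries of a clone come from the same cell line, which pairs them, and the correlations across genes of their deviations from the group means were 0.18 in D1, 0.02 in G2, 0.18 in H5, 0.55 in B9, 0.63 in H4 and 0.18 in C8. Promoter windows are from RefSeq, and 8 of the 31 genes had none there.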

Additional observations from a re-analysis of the deposited data

How the results depend on the processing

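The 7 calls in *Ccnc* KO cells became 8 with a filter of 1 count (beside 10.1% of all genes) and 8 by DESeq2 (8.82%). They were 7 with RLE size factors (12.4%), 5 with the clone as a random effect (10.1%) and 2 with DMSO libraries only (3.72%). With WT replicate 2 under ATRi included they were 4 (10.6%). When 1 clone or replicate was left out they were 2 to 6 (1.6% to 14.3%). The genes called were not always the same. The 5 calls in *Cdk8* KO cells became, in the same order, 6 (3.8%), 6 (5.83%), 5 (4.32%), 1 (1.27%), 0 (0.0296%) and 5 (6.33%). On leaving out 1 clone or replicate they were 0 to 8 (0.00538% to 8.25%), with 8 without H4 (7.13%). For the ATRi effect in the *Ccnc* multiplex (1), the counts were 6 with the filter of 1 count (2.87%) and 4 by DESeq2 (2.17%). With WT replicate 2 under ATRi included the count was 0 (0.231%), and on leaving out 1 clone or replicate 0 to 2 (0.116% to 1.36%). Within the *Ccnc* KO clones (0), that filter gave 4 (1.62%) and DESeq2 gave 3 (0.688%). The causes were not tested.

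With the replicate block, which pairs the libraries of a clone, the ATRi counts were 4 in the *Ccnc* and 8 in the *Cdk8* multiplex. All genes were called there at 2.43% and 11.3%. The block gave 1 within the *Ccnc* KO (0.65%) and 3 within the *Cdk8* KO clones (6.95%). With the block and WT replicate 2 under ATRi together the counts were 0 (0.259%) and 1 (2.72%). The block changed no interaction call of the 31 genes, whose interaction counts stayed at 0 in the fits that could be run. Other genes were called for the interaction with the block in the *Cdk8* multiplex, and with the filter of 1 count in the *Ccnc* multiplex. Without WT replicate 1 the interaction could not be fitted. Of the values of single genes under the alternatives, 2317 kept their side of the threshold, 56 lost a call and 45 gained one. Most of the 2317, namely 2230, were called in neither fit and do not show whether calls were stable. Of the 188 values called in either fit 0 changed sign, and of the 2230 called in neither 255 did. With 1 WT library under ATRi, its spread was taken from the other groups. The SEs of the main fits cover counting error and the spread between these libraries only.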
